A study of Homo sapiens with 8 samples.

Results

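The genes described here are 10 genes of the response to low oxygen and of glycolysis, *HIF1A*, *VEGFA*, *SLC2A1*, *HK2*, *LDHA*, *ENO1*, *PGK1*, *PKM*, *CA9* and *BNIP3*, out of 19980 protein-coding genes that were placed on chromosomes with peaks. They were taken from a fixed list of names, and every H3K27ac peak in each gene and within 20 kb on either side was kept. H3K27ac was profiled by ChIP-sequencing in MP2_HDAC1_OE and MP2_NTC, with 2 samples per line made with the antibody ab4729 and 2 control samples per line made without an antibody. Both are stable lines of MIA PaCa-2, an epithelial carcinoma line of the human pancreas, and both carry the CRISPR activation machinery (lentiMPHv2 and lentiSAMv2). The guide RNA targets *HDAC1* in MP2_HDAC1_OE and is a scrambled, non-targeting guide in MP2_NTC. Each condition is thus a single stable line, for which clonality is not given in the sources used here, and the labels describe growth in supplemented DMEM and no treatment with low oxygen. The deposited data are 1 list of reproducible peaks per line, which pools both samples, so there are no replicates, no error could be given for a value of a single peak and no test between the lines was possible.

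HIF1A is the oxygen-sensitive subunit of the transcription factor HIF-1. In normal oxygen it is hydroxylated and degraded, and in low oxygen it pairs with ARNT and binds a short core sequence, ACGTG or GCGTG, near its target genes. These targets include the glucose transporter SLC2A1, many enzymes of glycolysis, the angiogenic factor VEGFA, the carbonic anhydrase CA9 and the mitophagy receptor BNIP3. Pancreatic tumors are poorly perfused and known for both hypoxia and a high rate of glycolysis. H3K27ac is a mark of active promoters and enhancers.

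Across all genes, peaks of both lists were merged into 18678 regions wherever they shared 1 bp, and 28.6% of the regions were found only in MP2_HDAC1_OE, 20.7% only in MP2_NTC and 50.7% in both (called shared). The MP2_HDAC1_OE list has 25045 peaks and the MP2_NTC list 22569. The percentile of a peak is the share of the peaks in its own list with a lower value of the authors' signal, and it was used because the scaling of signals between the lists is not known. At the ends of *HDAC1*, the gene targeted by the guide, the strongest peak was at percentile 93.9 of MP2_HDAC1_OE and 47.4 of MP2_NTC. These ends held 1 shared region and 2 regions found only in MP2_NTC. A region at a gene end was found in both lines for 3 of 5 epithelial markers (*KRT8*, *KRT18* and *KRT19*, where *KRT8* and *KRT18* share 1 region and *KRT19* had a separate region in each line) and for *VIM*, and in neither line for *EPCAM*, for *CDH1* or for any of 6 markers of other cell types. Away from their ends but within 20 kb, *EPCAM* and *CDH1* each had 1 shared region. Of the 6 markers, *INS* had 3 regions there, all found only in MP2_HDAC1_OE.

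The windows of the 10 genes held 24 merged regions, made of 30 MP2_HDAC1_OE peaks and 21 MP2_NTC peaks. Of these regions 10 were shared, 7 were found only in MP2_HDAC1_OE and 7 only in MP2_NTC. There was at least 1 region at 8 genes, while *HK2* and *BNIP3* had none, and 36.7% of all protein-coding genes had none either. A region found only in MP2_HDAC1_OE lay in the windows of 5 genes (26.4% of all protein-coding genes), and a region found only in MP2_NTC lay in the windows of 6 genes (23.5% of all). The window around a gene end took in 2 kb of flanking sequence and the adjacent 1 kb of the gene. By this definition 11 regions touched an end of 1 of the 10 genes, 5 touched an end of a neighboring gene only and 8 were distal, against 35.5% distal regions in the whole set. A region at an end of the gene itself was present for 6 genes in MP2_HDAC1_OE and for 6 genes in MP2_NTC, compared with 43.6% and 42.5% of all protein-coding genes, whether expressed or not. *HIF1A*, *VEGFA*, *SLC2A1*, *ENO1* and *PGK1* had one in both lines, *LDHA* in MP2_HDAC1_OE and *PKM* in MP2_NTC. For *SLC2A1* the MP2_NTC region lay at the 3′ end only. With gene starts alone (either end for *VEGFA*), 6 genes had a region in MP2_HDAC1_OE and 5 in MP2_NTC.

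**Figure D1:**
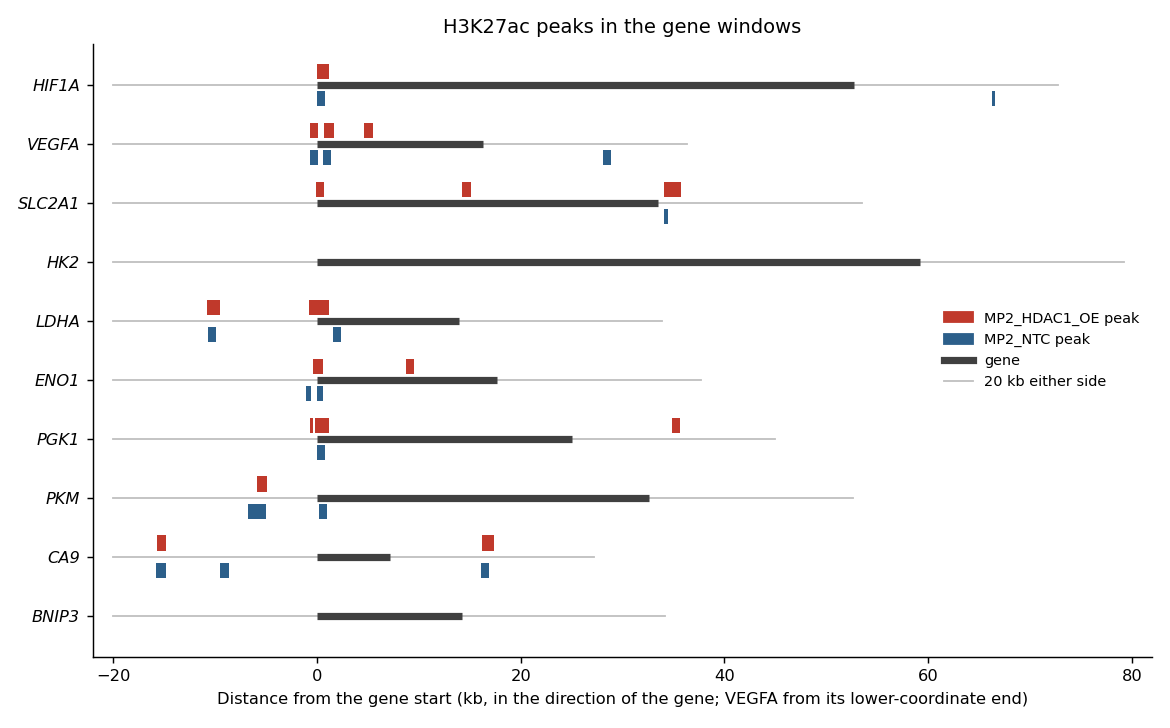
Peaks of MP2_HDAC1_OE (red, above each gene) and of MP2_NTC (blue, below it) in the windows of the 10 genes, by distance in kb from the gene start. Most peaks at the genes themselves cluster at the start, *HK2* and *BNIP3* have no peak, and the peaks near *CA9* lie 8.64 kb or more from its start.

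Promoter sequences from RefSeq (GRCh38.p14, 250 bases before to 50 after a start) were matched for 9 of the 10 genes, all but *VEGFA*. They were searched on both strands for these 2 forms of the core. A CACGTG contains ACGTG on both strands and counts 2 times. A match was found for all 9 genes, in 11 of their 12 windows, and 54.7% of the 22156 windows of protein-coding genes had one. The median was 1.5 matches per window for these genes and 1 for all protein-coding genes, and the median GC content was 70.3% and 62.3%. The stretches that hold the matches upstream of the start are given for 3 of the genes with a peak over the promoter window in at least 1 line and for the 3 genes without a peak there, with the matches in capitals, read 5′ to 3′ in the direction of the gene.

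LDHA, chr11:18394363-18394509 (+ strand): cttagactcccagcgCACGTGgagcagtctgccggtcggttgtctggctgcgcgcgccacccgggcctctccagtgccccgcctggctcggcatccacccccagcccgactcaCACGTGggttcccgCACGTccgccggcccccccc
ENO1, chr1:8878739-8878867 (- strand): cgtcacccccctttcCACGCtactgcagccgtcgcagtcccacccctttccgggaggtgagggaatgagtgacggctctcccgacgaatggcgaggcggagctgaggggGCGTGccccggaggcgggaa
PGK1, chrX:78104022-78104084 (+ strand): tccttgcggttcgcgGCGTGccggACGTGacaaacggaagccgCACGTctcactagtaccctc
HK2, chr2:74833883-74834098 (+ strand): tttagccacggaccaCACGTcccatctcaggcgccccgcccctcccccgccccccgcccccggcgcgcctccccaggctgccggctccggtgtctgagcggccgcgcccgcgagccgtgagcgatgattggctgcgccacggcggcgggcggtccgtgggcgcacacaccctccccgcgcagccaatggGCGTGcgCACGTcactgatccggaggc
BNIP3, chr10:131982008-131982081 (- strand): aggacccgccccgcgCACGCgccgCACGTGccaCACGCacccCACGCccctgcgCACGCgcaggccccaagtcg
CA9, chr9:35673895-35673927 (+ strand): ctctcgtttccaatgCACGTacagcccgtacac

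The promoter window of *LDHA* held 6 matches, as did that of *BNIP3*, the highest number among the outermost starts of these genes, and 5 of the 6 at *LDHA* lie upstream in the printed stretch. They differed in their peaks. A peak was counted here if any part of it overlapped the window. At the outermost start of *LDHA*, MP2_HDAC1_OE had 2 such peaks and MP2_NTC had 0. Over the window of the inner *LDHA* start, with 1 match, MP2_HDAC1_OE had 0 and MP2_NTC had 1. Neither line had a peak over the windows of *BNIP3*, *HK2* or *CA9*. At *ENO1*, where 2 matches were found, 2 MP2_HDAC1_OE peaks and 1 MP2_NTC peak overlapped the window. The MP2_NTC peak reached only to 8878726 and so held neither match. At *PGK1*, with 4 matches of which 3 lie upstream, 2 MP2_HDAC1_OE peaks and 1 MP2_NTC peak overlapped the window. These peaks began at 78104075 and 78104291 in MP2_HDAC1_OE and at 78104212 in MP2_NTC, downstream of the 3 upstream matches. A match is a string of letters and no evidence of binding, and HIF1A binding was not measured.

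At *HIF1A* itself the start carried a strong region in both lines. This shared region (chr14:61695526-61696727) began 13 bp inside the gene and also touches an end of the antisense transcript *HIF1A-AS1*. Its strongest peak had a signal of 81.1 in MP2_HDAC1_OE, at percentile 89.3, and a signal of 74.4 in MP2_NTC, at percentile 80.8. These strongest peaks began at the same base in the lines, and the region was made of 3 MP2_HDAC1_OE peaks and 2 MP2_NTC peaks. The only other region of the window was found in MP2_NTC alone (chr14:61761811-61762062, signal 62.7, percentile 69.6) and lies at the start of the neighboring gene *SNAPC1*, which encodes a subunit of the small nuclear RNA activating complex.

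SLC2A1, also known as GLUT1, carries glucose into the cell. At the start of *SLC2A1* a region was found only in MP2_HDAC1_OE (chr1:42958147-42958966), a single peak with a signal of 42.3 at percentile 41.7, which also touches the divergent transcript *SLC2A1-DT*. A second MP2_HDAC1_OE-only region lay inside the gene, 14.3 kb from the start (chr1:42943791-42944610, signal 40.9, percentile 38.5). Both were in the lower part of the list. The nearest MP2_NTC peak was 33368 bp from the region at the start and 19012 bp from the region inside the gene. The shared region of the gene (chr1:42923103-42924800) began 553 bp beyond the 3′ end and held 3 MP2_HDAC1_OE peaks, with signals of 61.0, 45.2 and 19.2, and 1 MP2_NTC peak, with a signal of 53.7. Its strongest peaks were at percentile 72.9 and 57.4, a difference of 15.6 points that became 49.1 points when the signals of the region were added. This 3′ peak was the only MP2_NTC peak in the window of *SLC2A1*.

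HK2, the hexokinase that traps glucose as glucose 6-phosphate, had no peak in its gene or 20 kb around it in either line. The nearest peaks were 64.9 kb away in MP2_HDAC1_OE and 65.2 kb away in MP2_NTC, at *POLE4*, a subunit of a DNA polymerase. The promoter window of *HK2* holds 3 matches to the core sequence at the outermost start and 6 at an inner start. An absent peak means that no peak passed the authors' test of reproducibility, and a weaker acetylation below that limit would not be seen.

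PGK1, which makes ATP in the later steps of glycolysis, had a shared region over its start (chrX:78104075-78105443). Its MP2_HDAC1_OE peaks had signals of 51.2, 32.2 and 16.5, and its single MP2_NTC peak had a signal of 64.5. The strongest peak was at percentile 58.7 in MP2_HDAC1_OE and 71.7 in MP2_NTC, so that *PGK1* ranked lower in MP2_HDAC1_OE by its strongest peak. When the signals of all peaks of a region were added and regions were ranked by the sum, *PGK1* ranked 27.1 points higher in MP2_HDAC1_OE. The MP2_HDAC1_OE peaks of this region overlap, so the sum counts shared bases repeatedly. A weak region found only in MP2_HDAC1_OE lay just upstream (chrX:78103614-78103861, signal 21.8, percentile 11.9), 350 bp from the nearest MP2_NTC peak. A further MP2_HDAC1_OE-only region of the window lies at the start of *TAF9B*, a component of the general transcription machinery (chrX:78139076-78139895, signal 57.9, percentile 69.0).

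ENO1, the enolase of most cells, had the strongest peak of all 10 genes in MP2_HDAC1_OE. It lies over the start in a shared region (chr1:8878049-8879108). The strongest MP2_HDAC1_OE peak had a signal of 93.5 and ranked 1363 in its list, at percentile 94.6. The strongest MP2_NTC peak had a signal of 64.1 and ranked 6505, at percentile 71.2. The difference of 23.4 points was the largest among the shared regions of these genes when ranked by the strongest peak. With added signals it was 45.2 points, below those of the inner *VEGFA* region and of the 3′ region of *SLC2A1*. The sums were 141.6 in MP2_HDAC1_OE and 64.1 in MP2_NTC. The MP2_NTC sum leaves out the peaks of the separate upstream region described next, which was not merged with the shared one. In MP2_NTC a separate region with 2 peaks, with signals of 55.4 and 12.7, lay upstream (chr1:8879274-8879800, percentile 60.0) only 165 bp from the nearest MP2_HDAC1_OE peak, and both regions also touch *ENO1-AS1*. Inside the gene an MP2_HDAC1_OE-only region had a signal of 35.7, at percentile 28.5 (chr1:8869128-8869947).

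PKM catalyzes the last step of glycolysis, from phosphoenolpyruvate to pyruvate. At the start of *PKM* a region was found only in MP2_NTC (chr15:72230594-72231413, signal 47.6, percentile 46.9), and it covers the start that RefSeq's promoter entry gives (72231190). The nearest MP2_HDAC1_OE peak was 5070 bp away. That peak belongs to a shared distal region upstream of the gene (chr15:72236484-72237556), where the strongest peak had a signal of 55.1 at percentile 65.0 in MP2_HDAC1_OE and of 63.6 at percentile 70.6 in MP2_NTC. A weak MP2_NTC-only region (signal 15.7, percentile 3.87) lay just upstream, 43 bp from the nearest MP2_HDAC1_OE peak. No region at an end of *PKM* was found in MP2_HDAC1_OE.

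LDHA turns pyruvate into lactate. Its start was covered by a region found only in MP2_HDAC1_OE (chr11:18393798-18395714) with 3 peaks, whose signals rose into the gene from 16.7 through 25.5 to 49.0, the last at percentile 54.9. MP2_NTC had a peak further inside the gene (chr11:18396121-18396940, signal 37.6, percentile 27.9), which covers an inner start of *LDHA* (18396351). The gap between these regions was 406 bp, so they counted as separate regions although they are close neighbors. The third region of *LDHA* was distal and shared (chr11:18383824-18385033), 9.53 kb upstream of the start. It was stronger than the regions at the gene, with a signal of 72.1 at percentile 83.6 in MP2_HDAC1_OE and of 62.6 at percentile 69.5 in MP2_NTC.

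**Figure D2:**
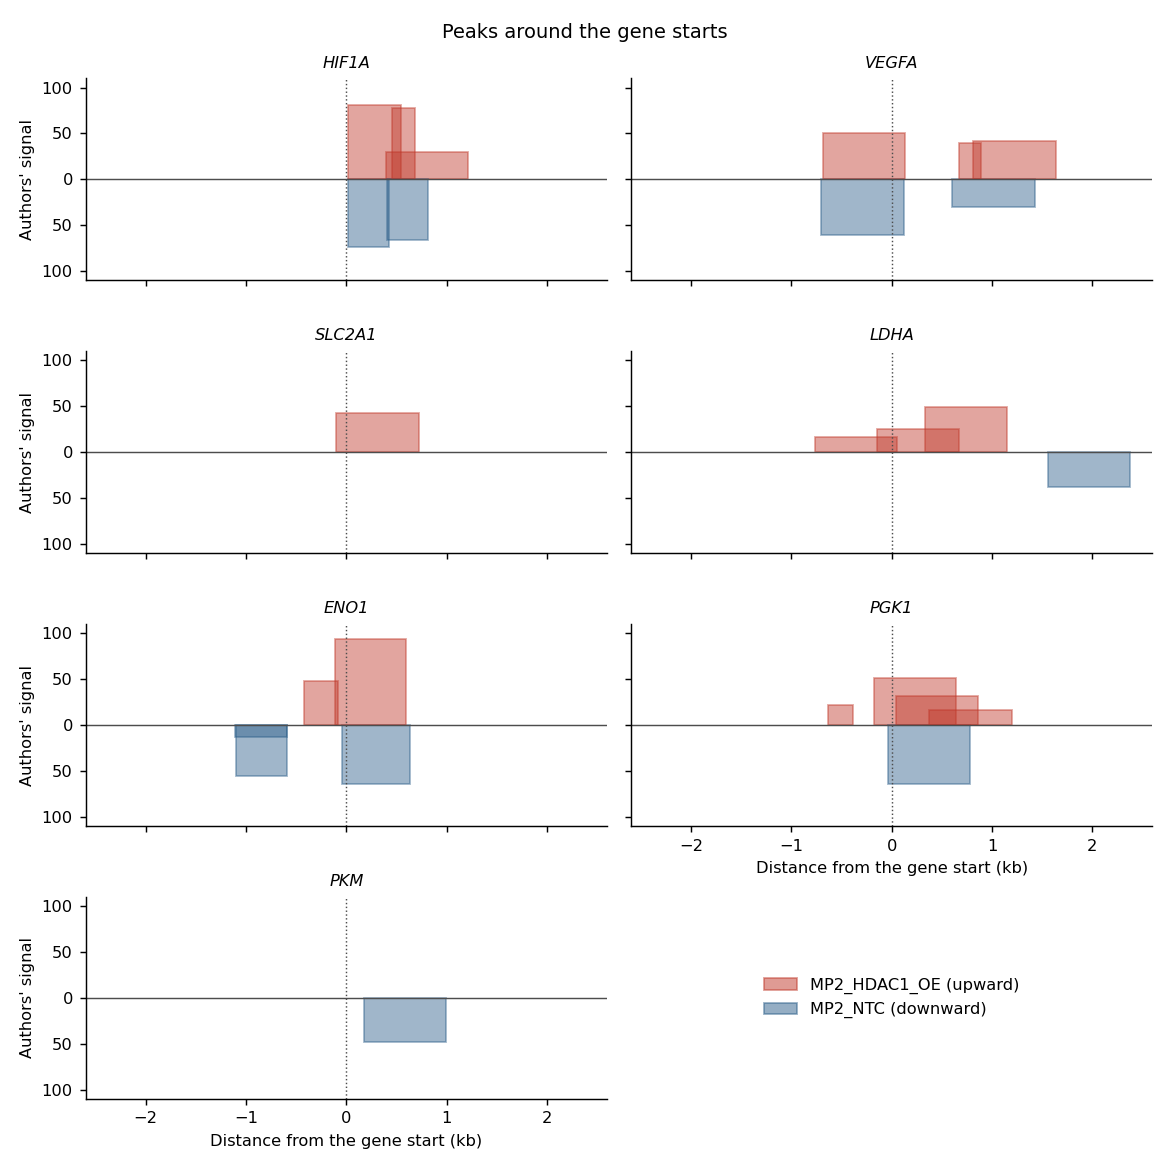
Peaks around the start of the 7 genes with a region at an end, with the authors' signal upward for MP2_HDAC1_OE and downward for MP2_NTC. The width of a box is the width of the peak, and signals are not scaled between the lists. *SLC2A1* has a peak in MP2_HDAC1_OE alone and *PKM* in MP2_NTC alone, and the *LDHA* peaks of the lines lie side by side.

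VEGFA, the main growth factor for blood vessels, had 2 shared regions at the end with the lower coordinate. The outer region (chr6:43769511-43770348) was 1 peak in each line, with a signal of 50.4 at percentile 57.4 in MP2_HDAC1_OE and of 60.6 at percentile 66.9 in MP2_NTC. The inner region (chr6:43770816-43771845) was weaker in both lists, with signals of 41.4 and 39.6 for its 2 MP2_HDAC1_OE peaks and of 30.1 for its MP2_NTC peak. There the percentile was 39.5 in MP2_HDAC1_OE and 18.8 in MP2_NTC. The 2 neighboring regions therefore ranked in opposite orders between the lines. With the signals of a region added, the order of each region was kept. The inner region then ranked 51.3 points higher in MP2_HDAC1_OE and the outer region ranked higher in MP2_NTC (a difference of -7.23 points). Inside the gene, 4.67 kb from that end, a region was found only in MP2_HDAC1_OE (chr6:43774876-43775695, signal 41.2, percentile 39.2), and 11756 bp beyond the other end a weak region was found only in MP2_NTC (chr6:43798243-43799062, signal 18.6, percentile 6.86).

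CA9, a carbonic anhydrase on the cell surface that is often used as a marker of hypoxia, had no peak at either end in either line. All 3 regions in its window touch ends of neighbors. The shared region at *CCDC107*, *ARHGEF39* and the RNA gene *RMRP* (chr9:35658118-35659136) was at percentile 60.4 in MP2_HDAC1_OE and 60.0 in MP2_NTC. The shared region at the start of *TPM2*, a tropomyosin (chr9:35690033-35691264), was at percentile 52.5 in both. By the strongest peak, these neighbors had the closest ranks of the 10 shared regions, while with added signals the first ranked higher in MP2_NTC (a difference of -30.5 points) and the second higher in MP2_HDAC1_OE (27.1 points). A region at *ARHGEF39* was found only in MP2_NTC (chr9:35664465-35665284, signal 55.6, percentile 60.3). *BNIP3*, whose product marks mitochondria for removal, had no peak in its window in either line, and the nearest peaks were 54.2 kb away at *JAKMIP3* in both lines.

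In the 10 shared regions the strongest peak ranked higher in MP2_HDAC1_OE for 7 and higher in MP2_NTC for 3, and over all shared regions it ranked higher in MP2_HDAC1_OE for 54.7%. Among the 7 are both regions of the neighbors of *CA9*, with differences of 0.45 and 0.0025 points. The difference of percentiles, MP2_HDAC1_OE minus MP2_NTC, ran from -13.0 to 23.4 points with a median of 4.46, beside a median of 1.51 over all 9477 shared regions, where the middle 95% ran from -47.1 to 52.0 points. All 10 regions lay inside that range. A difference of at least 20 points toward MP2_HDAC1_OE was seen for 2 of them (the start of *ENO1* and the inner region of *VEGFA*) and for 19.7% of all shared regions. Toward MP2_NTC it was seen for 0 of them and for 14.7% of all. The shared regions of these genes were of middle rank, with a median percentile of 62.7 in MP2_HDAC1_OE and 68.2 in MP2_NTC, beside 74.6 and 71.8 over all shared regions.

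**Figure D3:**
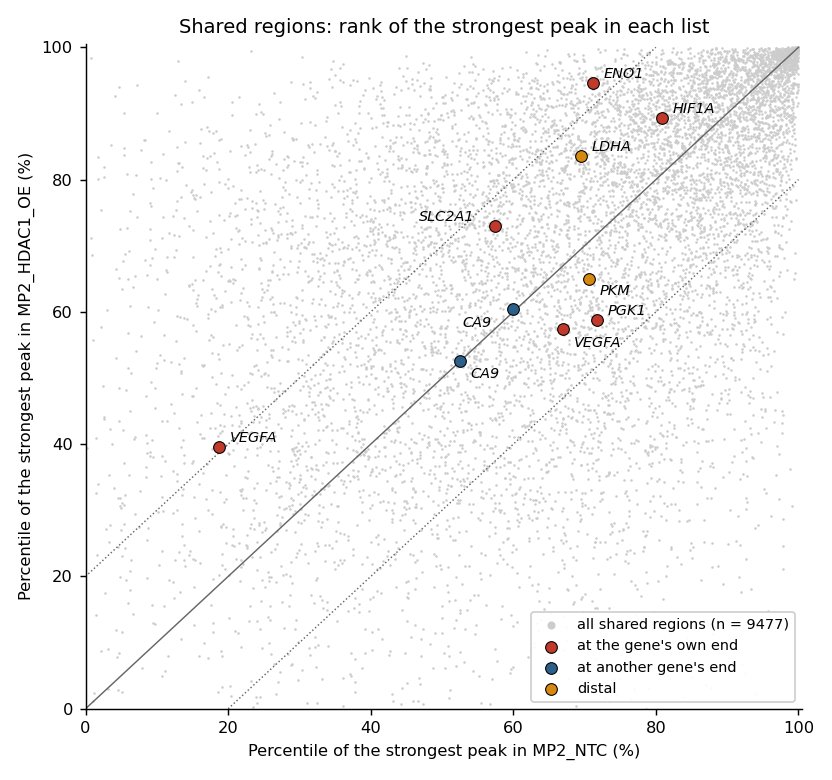
Percentile of the strongest peak of each shared region in MP2_NTC (horizontal axis) and MP2_HDAC1_OE (vertical axis), in percent, for all 9477 shared regions (grey) and the 10 regions in the windows of the named genes. The solid line marks equal ranks and the dotted lines a difference of 20 points, and only *ENO1* and the inner *VEGFA* region lie beyond a dotted line.

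The number of peaks within a shared region differed as well. MP2_HDAC1_OE had more peaks than MP2_NTC in 7 of the 10 shared regions, as many in 2 and fewer in 1, while 29.1% of all shared regions had more MP2_HDAC1_OE peaks. Ranks from the sum of signals move with this number, and the peaks of a line within a region can overlap. By that measure the median difference of the shared regions was 26.4 points beside 1.49 over all shared regions, and with equal numbers of peaks in the lists, ranked by the strongest peak, it was 1.70 beside -0.02.

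Regions of a single line were weaker, as they were in the whole set. The 7 MP2_HDAC1_OE-only regions had percentiles from 11.9 to 69.0 with a median of 39.2 (41.6 over all such regions), and the 7 MP2_NTC-only regions had percentiles from 3.87 to 69.6 with a median of 46.9 (39.1 over all). Of these 14 regions, 5 lay within 500 bp of a peak of the other line. These are the paired regions of *LDHA*, the upstream regions of *ENO1* and *PGK1* and the weak region upstream of *PKM*. When peaks up to 500 bp apart were merged, 5 MP2_HDAC1_OE-only and 4 MP2_NTC-only regions were left. The regions at the starts of *SLC2A1* and *PKM* had no such neighbor.

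The other genes of these pathways were counted by their gene-end regions. A list of 36 further genes held 7 genes of oxygen sensing and HIF, 18 of glycolysis and of glucose or lactate transport, and 11 other targets of HIF. A gene-end region was found for 23 of them in each line, beside 43.6% of all protein-coding genes in MP2_HDAC1_OE and 42.5% in MP2_NTC. A shared gene-end region was found for 20 of the 36 (55.6%), beside 36.1% of all protein-coding genes, whether expressed or not. For *GPI* and *ENO2* it lay at the 3′ end only and also touched a neighboring gene (*PDCD2L* and *ATN1*). The start of *GPI* held 2 regions found only in MP2_HDAC1_OE (percentiles 82.7 and 73.9). The start of *ENO2* held a separate region in each line. The median percentile of the strongest gene-end peak was 76.0 in MP2_HDAC1_OE and 72.2 in MP2_NTC, beside 65.8 and 69.1 for the 10 genes and 76.6 and 74.7 for all protein-coding genes with such a region. Of the 21 genes with a gene-end peak in both lines, 14 ranked higher in MP2_HDAC1_OE and 7 in MP2_NTC, with a median difference of 7.01 points. Of all 7471 protein-coding genes with a gene-end peak in both lines, 54.7% ranked higher in MP2_HDAC1_OE, and the median difference was 1.13 points. For this count the strongest peaks of the lines need not lie in the same region.

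Among the genes of oxygen sensing, *ARNT*, the partner of HIF1A, *VHL*, part of the ligase that marks HIF1A for degradation, and the prolyl hydroxylases *EGLN1* and *EGLN2* had shared regions. *EPAS1*, which encodes the related subunit HIF2A, *EGLN3* and *HIF1AN*, an asparaginyl hydroxylase of HIF, had no gene-end region, although *HIF1AN* had 1 shared region elsewhere in its window. In the group of glycolysis and transport 4 genes had none. These were the transporter *SLC2A3*, the hexokinase *HK1*, the regulator *PFKFB4* and the lactate dehydrogenase subunit *LDHB*. Elsewhere in their windows *HK1* had 1 shared and 1 MP2_HDAC1_OE-only region and *PFKFB4* had 2 MP2_NTC-only regions. *PFKM*, the muscle type of phosphofructokinase, had a gene-end region only in MP2_HDAC1_OE (percentile 35.1), at its start and also touching *SENP1*. *ALDOC*, an aldolase, had one only in MP2_NTC (percentile 42.1), at its 3′ end and also touching *PIGS*. Among the other targets, *ADM*, the vasodilator adrenomedullin, had one only in MP2_HDAC1_OE (percentile 42.7), at its start and also touching *SBF2*. *ANGPTL4*, a regulator of lipoprotein lipase, had one only in MP2_NTC (percentile 23.2). The carbonic anhydrase *CA12*, the histone demethylase *KDM3A*, the lysyl oxidase *LOX* and the MYC antagonist *MXI1* had none, although elsewhere in their windows *KDM3A* had 2 shared regions and *MXI1* had 1 shared and 2 MP2_NTC-only regions.

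**Figure D4:**
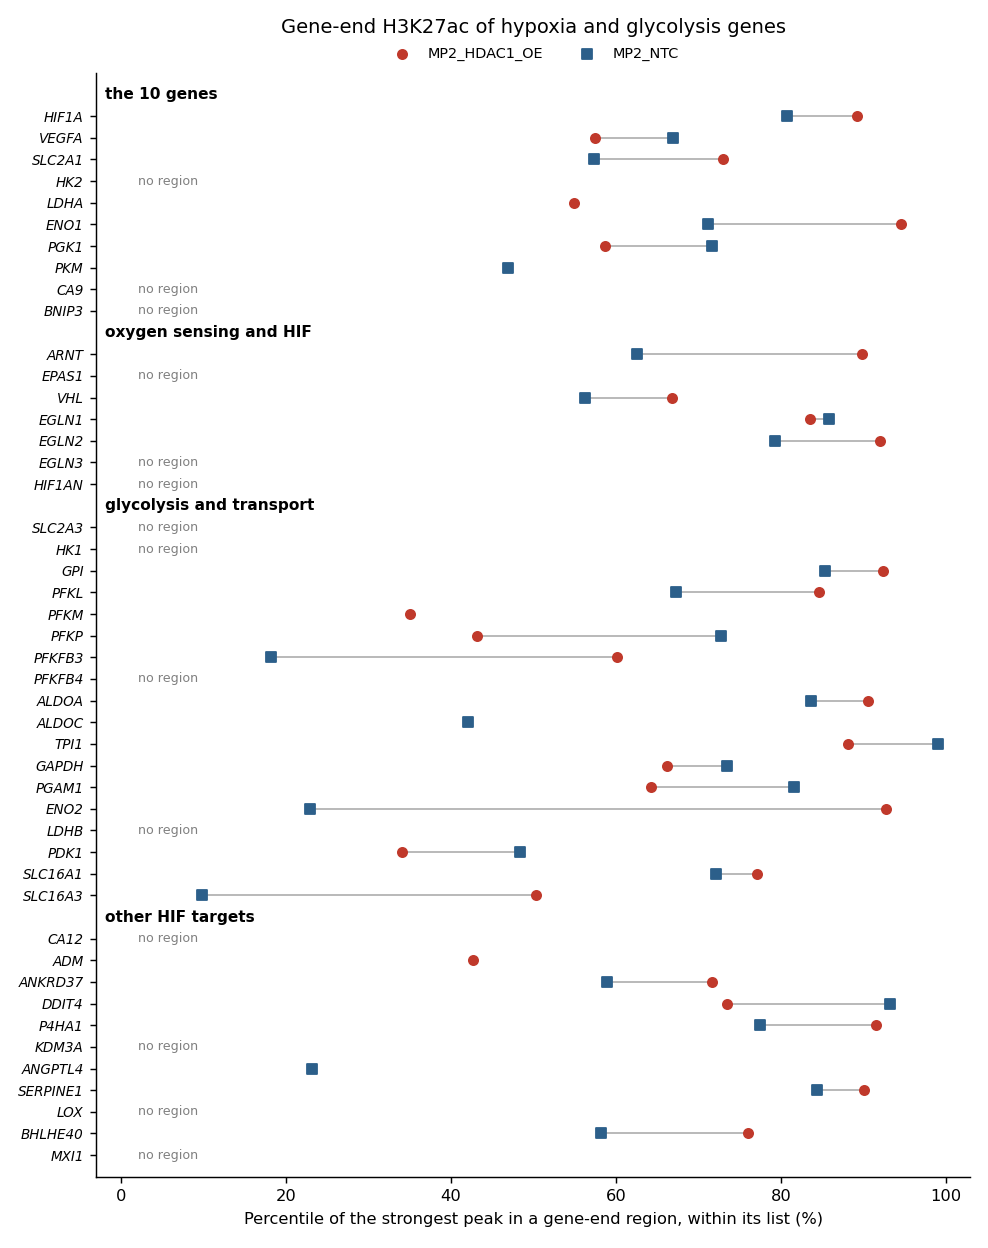
Percentile (in percent) of the strongest peak in a gene-end region, within its own list, for the 10 genes and the 36 other genes of the lists, with MP2_HDAC1_OE as red circles and MP2_NTC as blue squares. Lines join genes with a gene-end region in both lines, and genes marked as no region have none in either.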

How the data were processed

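H3K27ac ChIP-sequencing reads were mapped by the authors to hg38 within the ENCODE pipeline, and the submitters' processing notes name BWA 0.7.12 and Picard 1.88. The peak caller is not given in the sources used here. The authors deposited, per line, 1 list of the peaks that passed their test of reproducibility over both samples, with a signal value and a score per peak. The deposited score, a scaled measure of reproducibility, was not used for a comparison. The lists hold no read counts, so the depth is unknown.

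Gene positions were read from a RefSeq table (GRCh38.p14), strand and start from RefSeq promoter entries, and *VEGFA*, without such an entry, was placed by its ends. Regions, classes and percentiles were computed in Python 3.11.15 with numpy 2.4.6 and pandas 2.3.3, and the code was tested on simulated data. Figures were drawn with matplotlib 3.10.9. The alternatives covered the overlap, the threshold on peaks, the windows and the way of ranking.

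The genes, the further lists and their rule were chosen with earlier results of these data known. The rule named all 10 genes and, of the further lists, those with no gene-end region or with one in a single line. Genes at whose ends a region lay, *HDAC1* and the cell type markers were also named. Other genes were named after their values were seen.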

Additional observations from a re-analysis of the deposited data

How the results depend on the processing

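Of 51 alternative values for 12 results, 32 stayed within their limit and 19 moved. The limit was 1.5 times for a count and the 95% counting error of the percentiles otherwise. That counting error treats the peaks of a list as independent and does not measure the spread of a single peak's rank. It is narrow, so *HIF1A* going from 8.46 to 7.28 points counted as moved. A count going from 7 to 5 regions stayed within its limit. A reversal could be recorded only for a gene with a main difference of at least 20 points, which was *ENO1* alone, and 0 were recorded. A change of sign at another gene, as at *PGK1* below, was counted as moved. With single peaks compared at a reciprocal overlap of 50%, 15 of the 30 MP2_HDAC1_OE peaks were unique to that line. This is a count of peaks, although it was set against the 7 merged regions and so counted as moved. The count of MP2_NTC-only regions was 4 when peaks up to 500 bp apart were merged. The median percentile difference of the shared regions was 26.41 with the sum of signals, 1.7 with equal numbers of peaks and 5.79 with regions ranked by their strongest peak. For single genes 14 of 20 values moved. With the sum of signals *PGK1* went from -12.96 to 27.07, *SLC2A1* from 15.56 to 49.08 and *ENO1* from 23.38 to 45.15. For *VEGFA* the region with the highest percentile was then the inner one (51.33) in place of the outer one (-9.5). The cause was not tested. No paired analysis was possible because only the pooled list of a line was used, which also left no sample that could be dropped in turn. Unknown depth limits every statement on an absent peak.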

Other observations

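Other genes of the glycolysis list differed in rank between the lines, and those given here were picked after their values were seen. At the 3′ end of *ENO2*, the neuronal enolase, a shared region that also touches *ATN1* (chr12:6924361-6925539) was at percentile 92.8 in MP2_HDAC1_OE and 12.6 in MP2_NTC. At the start of *PFKFB3*, a regulator of phosphofructokinase activity, the shared region (chr10:6144270-6145983) was at percentile 60.2 in MP2_HDAC1_OE and 18.1 in MP2_NTC. The order was the opposite at *PFKP*, the platelet type of phosphofructokinase (chr10:3068127-3069075), with percentile 43.2 in MP2_HDAC1_OE and 72.7 in MP2_NTC. At the start of *TPI1*, the triosephosphate isomerase, the strongest region (chr12:6867451-6868680) was at percentile 88.2 in MP2_HDAC1_OE and 99.1 in MP2_NTC. *SLC16A3*, the lactate exporter MCT4, had 3 gene-end regions in MP2_HDAC1_OE alone and 1 in MP2_NTC alone, with none shared. Their percentiles were 50.4, 24.1 and 22.5 in MP2_HDAC1_OE and 9.83 in MP2_NTC. At an end of *SLC16A1* a shared region (chr1:112956375-112956869) was at percentile 75.3 in MP2_HDAC1_OE and 6.17 in MP2_NTC. A neighboring shared region (chr1:112955831-112956260) was at 77.2 and 72.2. Both also touch *SLC16A1-AS1*.

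*ARNT* had 2 neighboring shared regions at its start that ranked in opposite orders. The region chr1:150875513-150876624 was at percentile 89.9 in MP2_HDAC1_OE and 59.5 in MP2_NTC, while chr1:150876972-150877807 was at 28.5 and 62.6. The start of *GAPDH* held a region of each single line and a shared region (chr12:6534780-6535460) at percentile 46.7 in MP2_HDAC1_OE and 73.2 in MP2_NTC. Without replicate lists no error can be set beside these differences.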
